A study of Mus musculus with 8 samples.

Results

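The complement cascade and the coagulation and fibrinolysis system were examined gene by gene in Lewis lung carcinoma (LLC) tumors whose cancer cells carried wild-type Ago2 or were labelled Ago2 knock-out (ΔAgo2). The members were named by symbol, and all 32 were found among the 55487 genes of the count table, 20 of complement and 12 of coagulation and fibrinolysis. LLC is a mouse lung cancer cell line, and it was grown under the skin of female C57BL/6J mice aged 6 to 8 weeks. Tumors were taken at day 12 after engraftment, with 4 wild-type and 4 ΔAgo2 tumors, each from another mouse, and no treatment is named in the labels for either group. The ΔAgo2 cells were 1 single-cell clone, made with a lentiviral CRISPR guide and puromycin selection and picked for engraftment, so the deletion and the clone cannot be told apart. Host cells of all 8 tumors kept Ago2, and whether the wild-type cells passed through the same selection is not given in the sources used here. Whole tumors were sequenced, so fewer cells of a type and less RNA per cell cannot be told apart in any value given here.

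Complement is a chain of blood and tissue proteins that tag particles and damaged cells for clearance. C1q with its proteases C1r and C1s opens the classical pathway through C4 and C2, factors B and D and properdin drive the alternative pathway, and both meet at C3, from which the terminal pathway builds a pore. Coagulation is started by tissue factor (F3) on the cell surface and ends in thrombin and a fibrin clot, which the plasminogen activators help to dissolve. In solid tumors macrophages are known as a main source of C1q, fat cells of factor D, and cancer cells often carry tissue factor and the urokinase system.

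The stretches before the start of 4 members are shown because each holds a short motif named here and ends at, or 1 base from, the annotated start of the gene. They were read from RefSeq promoters on GRCm38.p6, a table that held 27 windows for 24 of the 32 members, and each is 250 bases long and written 5′ to 3′ along the gene. Capitals mark motif matches on either strand. F3 lies at chr3:121723287-121723536 (+), Plaur at chr7:24462233-24462482 (+), Pros1 at chr16:62854057-62854306 (+) and Cd59a at chr2:104095551-104095800 (+).

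F3: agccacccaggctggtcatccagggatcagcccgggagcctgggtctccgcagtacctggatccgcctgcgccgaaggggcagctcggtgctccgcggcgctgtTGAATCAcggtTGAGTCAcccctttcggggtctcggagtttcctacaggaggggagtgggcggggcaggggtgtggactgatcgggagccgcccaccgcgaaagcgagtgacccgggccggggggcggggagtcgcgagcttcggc
Plaur: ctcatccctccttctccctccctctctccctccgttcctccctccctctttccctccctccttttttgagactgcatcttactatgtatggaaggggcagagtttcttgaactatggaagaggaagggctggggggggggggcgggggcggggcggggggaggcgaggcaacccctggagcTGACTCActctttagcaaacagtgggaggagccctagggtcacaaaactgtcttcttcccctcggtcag
Pros1: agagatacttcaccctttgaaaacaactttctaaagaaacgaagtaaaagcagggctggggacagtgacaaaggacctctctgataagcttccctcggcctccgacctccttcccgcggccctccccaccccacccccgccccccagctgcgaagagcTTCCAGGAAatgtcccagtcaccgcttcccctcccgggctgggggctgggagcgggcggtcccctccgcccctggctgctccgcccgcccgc
Cd59a: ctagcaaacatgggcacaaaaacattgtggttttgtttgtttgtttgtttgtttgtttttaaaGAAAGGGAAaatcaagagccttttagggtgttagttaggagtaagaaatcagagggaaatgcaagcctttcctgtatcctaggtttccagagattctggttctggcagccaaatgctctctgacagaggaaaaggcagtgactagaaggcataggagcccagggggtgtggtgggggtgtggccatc

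The capitals in F3 and Plaur match TGANTCA, the binding sequence of the transcription factor AP-1, which F3 held at 2 places. This motif was added after the sequences had been read, and 6.75% of the 32851 promoters of the table held it in the same 250 bases. Among the members it was in 5, namely F3, Plaur, Procr, F2r and C3ar1. The capitals in Pros1 match TTCNNNGAA, a core of the site bound by STAT proteins, which 7.02% of all promoters held and among the members only Pros1 and C7. The capitals in Cd59a match GAAANNGAA, a core of the interferon-stimulated response element, held by 7.13% of all promoters and by Cd59a and C5ar1. The NF-kB sequence GGGACTTTC was in 0.289% of all promoters and in none of the 27 member windows. Both strands were searched, no match of one motif overlapped a match of another in the printed windows, and a match describes letters and not a used site.

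Total counts ran from 7903288 in wild-type tumor 4 to 268564145 in ΔAgo2 tumor 4, and a gene with 0 counts could have stood at up to 0.38 CPM (counts scaled to a library total of 1e+06) in the shallowest library, which covers counting error only. The Ago2 transcript was not lower in the ΔAgo2 tumors, with a log2 fold change of 0.64 ± 0.30 (SE) at an adjusted p of 0.205 by edgeR, so its level does not check the labels. The LLC tissue was checked with 6 epithelial and lung markers chosen after the data were seen. Krt8 was at 336 to 736 TPM and Krt18 at 511 to 1185 TPM, Epcam did not pass 6.26 TPM, and the lung factor Nkx2-1 had 0 counts in all libraries. In wild-type tumor 3 the summed TPM of 5 skeletal muscle markers was 4103 beside 284 to 451 in the other wild-type tumors. In ΔAgo2 tumors it was 62.6 to 237, under every wild-type tumor. All 5 markers had negative log2 fold changes, 4 at an unadjusted p under 0.05 by edgeR, and none passed the adjusted threshold. In ΔAgo2 tumor 1 the C1q genes, described next, stood apart.

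Levels between genes were compared in TPM, which is scaled by gene length. The 3 chains of C1q led all members, with mean TPM over the 8 tumors of 1168 for C1qa, 915 for C1qb and 434 for C1qc, followed by the urokinase gene Plau at 411 and the properdin gene Cfp at 200.2. The mean was above 100 TPM for 8 members, from 10 to 100 TPM for 16, from 1 to 10 TPM for 5 and under 1 TPM for Cfb, C7 and Hc. The order within the C1q chains was the same in every tumor, whereas C1qc and Plau overlapped in their ranges, at 330.3 to 687 and 251 to 562 TPM. Transcripts of the classical pathway and C3 were thus present in every tumor, and those of Cfb (factor B), Hc, which encodes C5, and C7 were scarce.

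**Figure D1:**
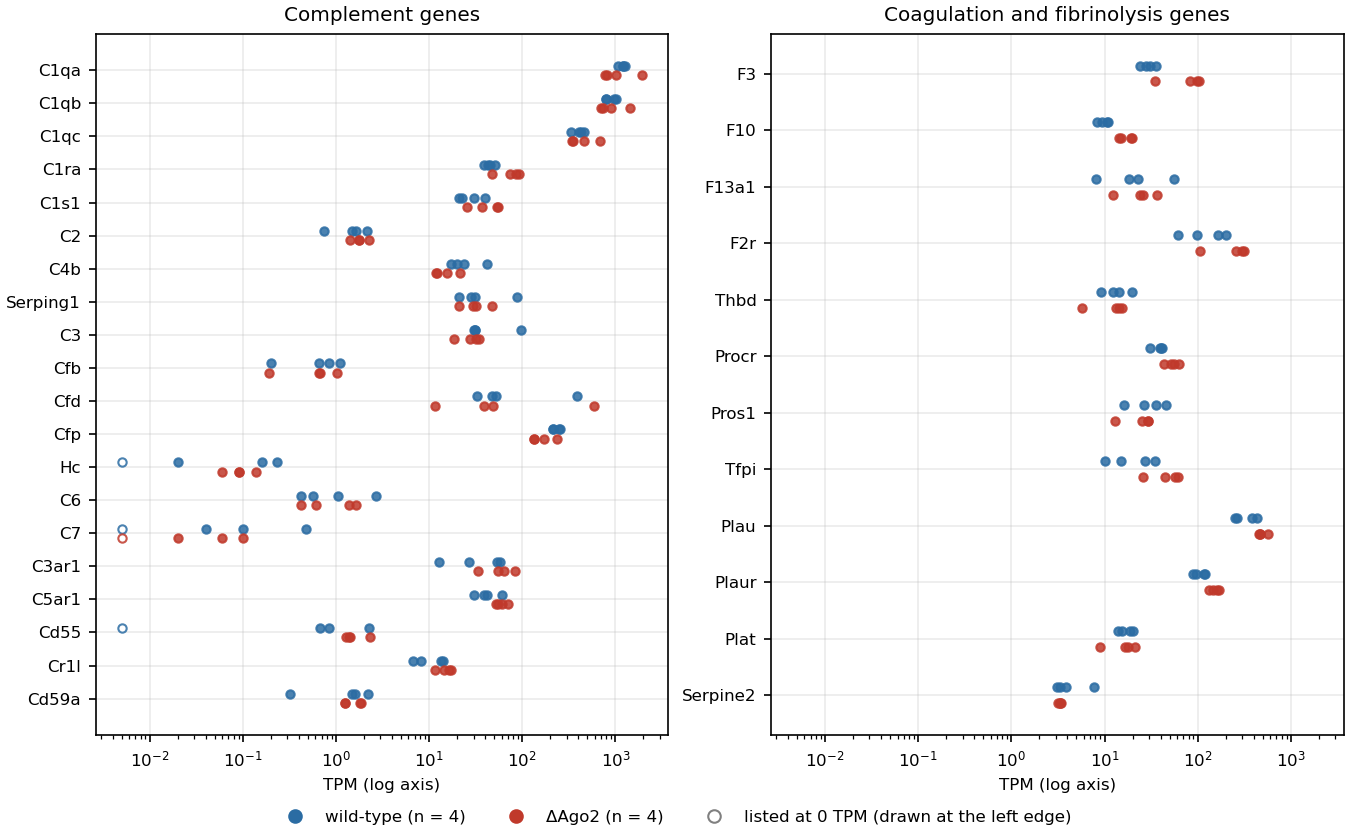
Transcript level of the 32 members in each tumor. The horizontal axis is TPM on a log scale, each point is 1 tumor (blue, wild-type, n = 4; red, ΔAgo2, n = 4), and open points mark a value listed at 0. C1qa, C1qb and C1qc lie at the right at 330.3 to 1944 TPM, and Hc and C7 lie under 1 TPM in every tumor.

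Of the 12 coagulation and fibrinolysis members, F3 rose in ΔAgo2 tumors and 11 did not pass the test. None of the 19 complement members tested passed it. Among all 16061 genes tested, 3.49% were called at an adjusted p under 0.05, 1.36% higher and 2.12% lower, so that 1 call among 31 members tested (3.23%) is close to the background. At an unadjusted p under 0.05 by edgeR, 2 complement members (C1ra with a higher mean, C4b with a lower one) and 4 of coagulation (F3, F10 and Tfpi higher, Pros1 lower) passed. These 6 of 31 members are a smaller share than the 4281 of all 16061 genes that passed. With DESeq2's Wald test, 1 complement member (C1ra) was called, in a fit that called 2265 of 30251 genes. With limma voom and sample quality weights 5 of 19 were (C1ra and C1s1 higher, C1qa, C4b and Cfp lower). That fit called 4476 of 16061 genes, a similar share. Its weights ran from 0.233 for ΔAgo2 tumor 1 to 5.27 for ΔAgo2 tumor 4. Of the 12 coagulation members, the Wald test called 2 (both higher) and limma voom 6 (4 higher, 2 lower). In each of these fits this was a larger share than over all genes. A fit with the replicate number as a block called 0 of the 12 and 70 of all genes. The median log2 fold change was -0.04 over the complement members, 0.29 over the coagulation members and 0.04 over all genes tested. C7 did not pass the filter on low counts, and its 25 counts over the wild-type tumors and 29 over the ΔAgo2 tumors allow no comparison.

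**Figure D2:**
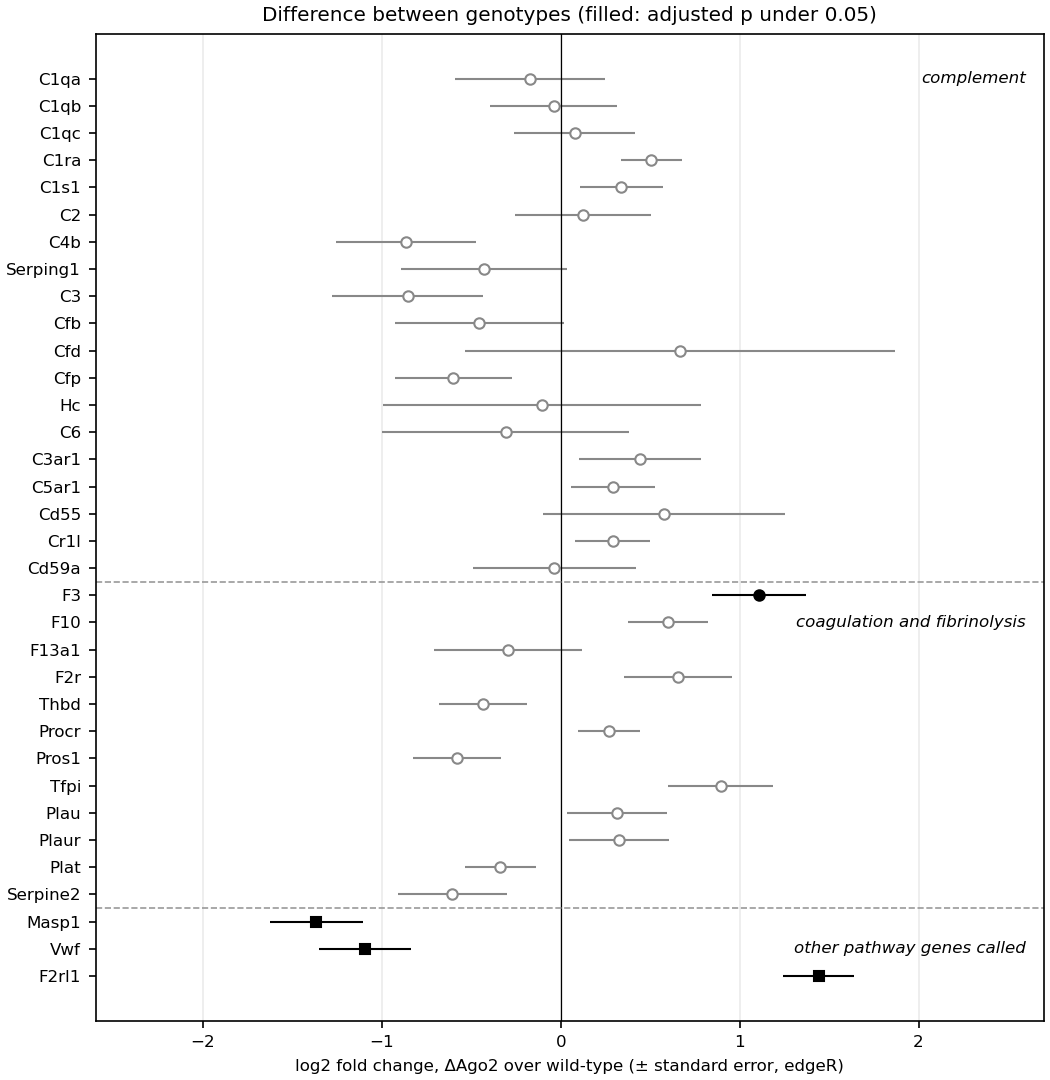
Difference between genotypes for the 31 members tested and the 3 other pathway genes past the threshold. The horizontal axis is the log2 fold change of ΔAgo2 over wild-type tumors with its standard error, and filled symbols have an adjusted p under 0.05 by edgeR. F3 at 1.11 is the only filled member, and Cfd has the widest error, 1.20.

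The classical pathway begins with C1q, a recognition protein of 3 chains whose genes lie side by side on chromosome 4, with 3.617 kb between C1qb and C1qc and 2.852 kb between C1qc and C1qa. C1qa measured 444, 444, 388 and 660.4 CPM across wild-type tumors 1 to 4 and 921, 288, 270.2 and 238 CPM across ΔAgo2 tumors 1 to 4. ΔAgo2 tumor 1 was thus above every wild-type tumor and the other ΔAgo2 tumors below every wild-type tumor. C1qb and C1qc had the same pattern, at 706 and 605 CPM in ΔAgo2 tumor 1, 238 to 264 and 200.4 to 242 CPM in the other ΔAgo2 tumors, and 299 to 427 and 276 to 316 CPM in wild-type tumors. In TPM this held for C1qa, whereas C1qb in ΔAgo2 tumor 2 (890.1 TPM) and C1qc in ΔAgo2 tumors 2 to 4 (344 to 459 TPM) lay within the wild-type ranges of 790.2 to 1019 and 330.3 to 459 TPM. All 3 chains were highest in ΔAgo2 tumor 1 in CPM and in TPM. Over the 8 tumors the ratio to C1qa in TPM was 0.618 to 0.953 for C1qb and 0.258 to 0.453 for C1qc. C1qa itself ran from 778 to 1944 TPM, but only from 778 to 1280 TPM outside ΔAgo2 tumor 1.

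None of the C1q genes passed the test between genotypes. Log2 fold changes were -0.17 ± 0.42 (SE) for C1qa, -0.04 ± 0.35 for C1qb and 0.08 ± 0.34 for C1qc, with adjusted p from 0.813 to 0.954. Without ΔAgo2 tumor 1 the log2 fold change of C1qa was -0.87 with an adjusted p of 0.0402 by edgeR, that of C1qb -0.60 with 0.0587 and that of C1qc -0.46 with 0.0795, in a fit that called 1793 of all genes. After removal of each library's trend on GC content (the GC correction) the direction turned, to 0.33 for C1qa and 0.35 for C1qb, and C1qc was at 0.45, with adjusted p from 0.450 to 0.625, and these transcripts are 57.4% to 59.5% GC. The summed TPM of 5 macrophage markers (Csf1r, Adgre1, Cd68, Mrc1, Itgam), of which none was at 0, was 401 to 634 in wild-type and 420 to 593 in ΔAgo2 tumors. In ΔAgo2 tumor 1 it was 420 TPM, the lowest of its group. In TPM, Csf1r (62.5), Adgre1 (32.3) and Mrc1 (24.9) were also lowest of the group there. Itgam (29.45 TPM beside 25.6 to 40.8 in the other ΔAgo2 tumors) and Cd68 (271 beside 262 to 308) were not. In CPM, Itgam was highest there of all tumors (67.4 beside 38.9 to 55.9) and Cd68 highest of its group (155 beside 96.8 to 117.8). Csf1r (164 CPM), Adgre1 (47.7 CPM) and Mrc1 (72.3 CPM) lay within the range of the other ΔAgo2 tumors. The part of macrophages in the C1q values was not tested.

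The proteases C1r and C1s, which cleave C4 and C2 once C1q has bound, are encoded by C1ra and C1s1, 6.902 kb apart on chromosome 6. C1ra measured 47.3, 44.7, 52.3 and 57.5 CPM across wild-type tumors 1 to 4 and 64.6, 75.9, 70.3 and 75.7 CPM across ΔAgo2 tumors 1 to 4. Every ΔAgo2 tumor was above every wild-type tumor, a separation in this direction that 8.05% of all genes tested showed (8.36% in the other direction), and it was the only such complement member. The means were 50.5 ± 5.64 and 71.6 ± 5.34 CPM (SD, n = 4), a log2 difference of 0.51 ± 0.17 (SE), and the adjusted p of 0.107 by edgeR did not pass the threshold. It passed with DESeq2's Wald test, at 0.51 with an adjusted p of 0.0342, and also by limma voom, at 0.60 with 0.00669. In TPM the groups overlapped, with 47.6 in ΔAgo2 tumor 1 and 50.6 in wild-type tumor 3.

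C1s1 ran from 22.8 to 43.2 CPM in wild-type and from 36.3 to 49.2 CPM in ΔAgo2 tumors, with a log2 fold change of 0.34 ± 0.23 (SE) at an adjusted p of 0.357. It passed with limma voom, at 0.67 with an adjusted p of 0.0377, and was 0.08 with 0.865 after the GC correction. Fibroblasts are known to make both proteases, and the summed TPM of 6 fibroblast markers, none of them at 0, was 1300 to 2407 in wild-type and 582 to 1841 in ΔAgo2 tumors, lowest in ΔAgo2 tumor 1. The single markers differed in direction, and none passed the test. Log2 fold changes were -1.30 for Col1a1, -1.22 for Col1a2, -0.70 for Col3a1, -0.64 for Lum, 0.16 for Dcn and 0.68 for Pdgfra. The part of fibroblasts in the C1ra and C1s1 values was not tested. Near-identical copies of both genes exist, but C1rb held 11 counts and C1s2 37 counts over all libraries, beside 42125 for C1ra and 26625 for C1s1.

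C4b and C2 form the next step, the classical C3 convertase. C4b measured 34.0, 39.8, 82.4 and 66.4 CPM across wild-type tumors 1 to 4 and 55.6, 18.3, 21.9 and 26.3 CPM across ΔAgo2 tumors 1 to 4. The groups overlapped through ΔAgo2 tumor 1, and the other ΔAgo2 tumors were below every wild-type tumor. Between genotypes the log2 fold change was -0.87 ± 0.39 (SE) with an adjusted p of 0.186 by edgeR, and -1.33 with 0.0364 without ΔAgo2 tumor 1. C2 was low, at 1.43 to 2.92 and 1.60 to 3.96 CPM, with an adjusted p of 0.854, and it shares 42.8% of its exon bases with the readthrough gene Gm20547, which was listed with 0 counts. Serping1, the inhibitor of C1r and C1s, had 71.0 CPM in wild-type tumor 3 and 49.9 CPM in ΔAgo2 tumor 1 beside 13.4 to 25.1 CPM in the remaining tumors, and its adjusted p was 0.565.

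C3 is the hub of the cascade, and its transcript followed that of C4b. C3 measured 54.2, 55.7, 172.1 and 78.4 CPM across wild-type tumors 1 to 4 and 79.7, 25.9, 45.3 and 48.4 CPM across ΔAgo2 tumors 1 to 4. Wild-type tumor 3, the tumor with the high muscle markers, was far above the rest, and in CPM ΔAgo2 tumor 1 alone of its group lay within the wild-type range. These 2 tumors also had the highest summed adipocyte markers, at 55.0 and 64.7 TPM. The muscle markers of ΔAgo2 tumor 1 were at 181 TPM, and all ΔAgo2 tumors were under the wild-type range of 284 to 4103 TPM. The part of muscle or fat cells in the C3 values was not tested. The log2 fold change was -0.86 ± 0.42 (SE) with an adjusted p of 0.217 by edgeR. Leaving out wild-type tumor 3 gave -0.33 and leaving out ΔAgo2 tumor 1 gave -1.18, at adjusted p of 0.529 and 0.0848, so that neither passed the threshold.

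The alternative pathway was represented mainly by Cfp, encoding properdin, which stabilizes the convertase. Cfp measured 131.1, 154, 150.9 and 185 CPM across wild-type tumors 1 to 4 and 186, 62.8, 93.1 and 67.8 CPM across ΔAgo2 tumors 1 to 4. ΔAgo2 tumors 2 to 4 were the lowest, and ΔAgo2 tumor 1 was close to the highest wild-type tumor in CPM and within the wild-type range in TPM. On the log2 scale the difference was -0.60 ± 0.33 (SE) with an adjusted p of 0.258 by edgeR, -1.06 with 0.0238 without ΔAgo2 tumor 1 and -0.27 with 0.604 after the GC correction. Cfb, which encodes factor B and shares 79.5% of its exon bases with Gm20547, was at 0.25 to 1.10 CPM with an adjusted p of 0.547.

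Cfd, encoding factor D (adipsin), varied more than any other well-expressed member. Cfd measured 16.7, 10.5, 124.7 and 21.8 CPM across wild-type tumors 1 to 4 and 250.4, 2.90, 11.4 and 13.2 CPM across ΔAgo2 tumors 1 to 4. Wild-type tumor 3 and ΔAgo2 tumor 1 were high and the rest low, whatever the genotype. The summed TPM of 5 adipocyte markers (Adipoq, Plin1, Cidec, Lep, Retn), none of them at 0 throughout, was 55.0 and 64.7 in the same 2 tumors, 1.79 in ΔAgo2 tumor 2, where Cfd was lowest, and 6.20 to 9.58 in the other tumors. Between genotypes the log2 fold change was 0.67 ± 1.20 (SE) with an adjusted p of 0.743, and it ran from -2.25 without ΔAgo2 tumor 1 to 2.10 without wild-type tumor 3. The part of fat cells in it was not tested.

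**Figure D3:**
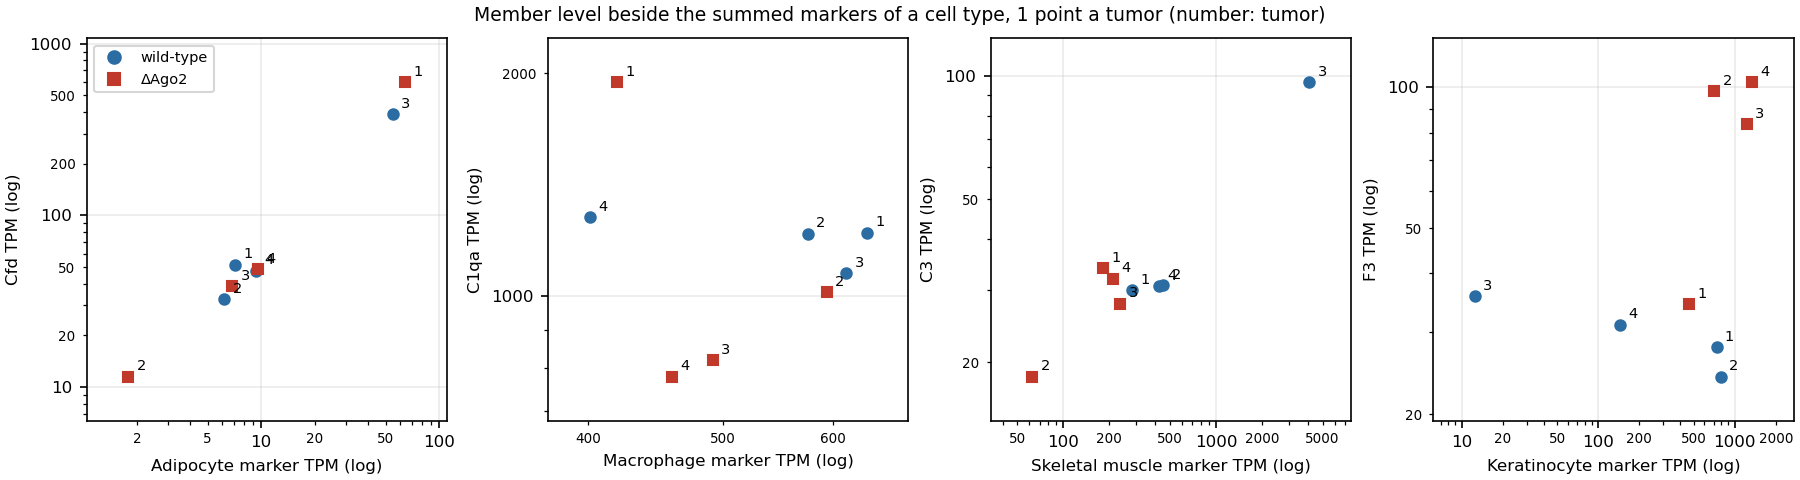
Level of 4 members beside the summed TPM of markers of a cell type, both on log axes. Each point is 1 tumor (circles, wild-type; squares, ΔAgo2; the number is that of the tumor), with the adipocyte, macrophage, skeletal muscle and keratinocyte markers from left to right. Cfd is high in the 2 tumors with adipocyte markers at 55.0 and 64.7 TPM, and C1qa is highest where macrophage markers are at 420 TPM. C3 is highest in wild-type tumor 3, where muscle markers are at 4103 TPM and adipocyte markers at 55.0 TPM. F3 is highest in 3 ΔAgo2 tumors with keratinocyte markers at 711 to 1342 TPM.

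The terminal pathway was near the lower limit of detection. C6 measured 0.69, 0.52, 3.34 and 1.86 CPM across wild-type tumors 1 to 4 and 2.67, 0.41, 0.69 and 1.43 CPM across ΔAgo2 tumors 1 to 4, with groups that overlapped at an adjusted p of 0.797. Hc held 24 counts over the wild-type and 78 over the ΔAgo2 tumors, whose libraries differed in depth. Its means were 0.28 CPM in wild-type and 0.20 CPM in ΔAgo2 tumors, with a log2 fold change of -0.11 ± 0.89 (SE) at an adjusted p of 0.951. Hepatocytes, which make most of the C3, C5 and C6 of blood, left little trace, as the summed TPM of 5 hepatocyte markers did not pass 0.98 in any tumor and Ttr was at 0 in all.

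The receptors of the fragments C3a and C5a, which draw in and activate myeloid cells, were well expressed. C5ar1 measured 35.4, 38.1, 54.7 and 38.4 CPM across wild-type tumors 1 to 4 and 70.6, 49.3, 42.3 and 41.8 CPM across ΔAgo2 tumors 1 to 4. All ΔAgo2 tumors were above 3 of the wild-type tumors, and ΔAgo2 tumor 1 was also above wild-type tumor 3. The log2 fold change was 0.29 ± 0.23 (SE) with an adjusted p of 0.431. C3ar1 ran from 27.2 to 86.6 CPM in wild-type and from 65.2 to 99.0 CPM in ΔAgo2 tumors, with a log2 fold change of 0.44 ± 0.34 at an adjusted p of 0.410, and 0.02 after the GC correction.

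Cells protect themselves from complement with membrane regulators, of which Cr1l (Crry in mice) led here. Cr1l measured 51.0, 29.6, 47.7 and 34.8 CPM across wild-type tumors 1 to 4 and 54.0, 48.6, 47.4 and 49.8 CPM across ΔAgo2 tumors 1 to 4. The ΔAgo2 values lay close together at the upper end of the wild-type range, with a log2 fold change of 0.29 ± 0.21 (SE) at an adjusted p of 0.385. Its transcript has the lowest GC content of the tested members, 37.8%, and after the GC correction the log2 fold change was -0.50. Cd55 and Cd59a, which act on the convertases and on the terminal pore, did not pass 3.85 and 1.48 CPM in any tumor. In the shallowest library, wild-type tumor 4, Cd55 had 0 counts, and adjusted p were 0.599 for Cd55 and 0.968 for Cd59a.

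F3 encodes tissue factor, the receptor for factor VII that starts coagulation, and it was the only member past the threshold. The gene (ENSMUSG00000028128.13) lies on chromosome 3 at 121723537 to 121735048 of GRCm38, on the plus strand. F3 measured 24.7, 21.4, 31.4 and 39.0 CPM across wild-type tumors 1 to 4 and 39.7, 67.6, 66.8 and 76.1 CPM across ΔAgo2 tumors 1 to 4. Every ΔAgo2 tumor was above every wild-type tumor, but ΔAgo2 tumor 1 only just exceeded wild-type tumor 4, whereas the other ΔAgo2 tumors were well above. The means were 29.1 ± 7.80 and 62.5 ± 15.8 CPM (SD, n = 4), which gave a log2 fold change of 1.11 ± 0.26 (SE) with an adjusted p of 0.0474 by edgeR, a 2.16-fold difference.

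The direction of F3 was the same in all alternatives, with log2 fold changes from 0.79 to 1.42, but the call was not. It was lost in 8 of 17, among them the GC correction, at 0.79 with an adjusted p of 0.123, and the fits without any 1 of 5 libraries (wild-type tumor 1 or 2, ΔAgo2 tumor 2, 3 or 4), at 0.99 to 1.08 with adjusted p from 0.0738 to 0.157 by edgeR. In TPM, ΔAgo2 tumor 1 at 34.4 lay under wild-type tumor 3 at 35.8. Keratinocytes are known to carry tissue factor, and the summed TPM of 5 keratinocyte markers, none of them at 0 throughout, was 737, 788, 12.5 and 144 across wild-type tumors 1 to 4 and 464, 711, 1220.5 and 1342 across ΔAgo2 tumors 1 to 4. Of the 5, Krt10 rose (adjusted p of 0.0460 by edgeR) and 4 did not pass the test, and the part of these cells in the F3 values was not tested. Wild-type tumors 3 and 4, with the lowest of these sums, had the highest F3 of their group in CPM.

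F2r encodes the thrombin receptor PAR1 and was the most abundant procoagulant member. F2r measured 191, 115, 235 and 103 CPM across wild-type tumors 1 to 4 and 162, 289, 272 and 294 CPM across ΔAgo2 tumors 1 to 4. ΔAgo2 tumor 1 lay within the wild-type range and the other ΔAgo2 tumors above it. On the log2 scale the difference was 0.66 ± 0.30 (SE) and the adjusted p of 0.192 by edgeR did not pass the threshold. F10, which encodes factor X, the protease that tissue factor with factor VII activates, was at 8.89 to 11.2 CPM in wild-type and 11.2 to 17.6 CPM in ΔAgo2 tumors, with a log2 fold change of 0.60 ± 0.22 at an adjusted p of 0.127. F13a1, which encodes the fibrin cross-linking factor XIII A chain and is known from macrophages, ran from 27.4 to 129 and from 37.8 to 71.7 CPM, with an adjusted p of 0.669.

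Among the anticoagulant genes the tissue factor pathway inhibitor Tfpi came closest to a call. Tfpi ran from 27.2 to 65.9 CPM in wild-type tumors and from 64.8 to 92.0 CPM in ΔAgo2 tumors, where only ΔAgo2 tumor 1 lay within the wild-type range. Between genotypes the log2 fold change was 0.89 ± 0.29 (SE) with an adjusted p of 0.102 by edgeR. It passed with DESeq2's Wald test, at 0.90 with an adjusted p of 0.0477, by limma voom, at 0.79 with 0.0161, and without wild-type tumor 3, at 1.16 with 0.0431, but after the GC correction it was 0.23, and its GC content of 39.7% is the second lowest of the tested members. The ratio of F3 to Tfpi in TPM was 1.02 to 3.09 in wild-type and 1.32 to 1.87 in ΔAgo2 tumors, so the balance of initiator and inhibitor overlapped between genotypes.

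Procr, the endothelial protein C receptor, was the leading anticoagulant gene. Procr measured 28.9, 29.7, 27.5 and 30.8 CPM across wild-type tumors 1 to 4 and 39.8, 34.7, 33.0 and 33.3 CPM across ΔAgo2 tumors 1 to 4. Every ΔAgo2 tumor was above every wild-type tumor, here with the highest value in ΔAgo2 tumor 1, but the gap was small. The log2 fold change was 0.27 ± 0.17 (SE) with an adjusted p of 0.332 by edgeR. Its partner thrombomodulin (Thbd), which turns thrombin to the activation of protein C, was at 16.0 to 25.4 CPM in wild-type and 9.85 to 16.7 CPM in ΔAgo2 tumors, with a log2 fold change of -0.43 ± 0.24 at an adjusted p of 0.269. The ratio of Thbd to Procr in TPM was 0.297 to 0.503 in wild-type and 0.135 to 0.274 in ΔAgo2 tumors, with no overlap, a ratio chosen after the values were seen and not tested. The summed TPM of 5 endothelial markers, none of them at 0, was 40.8 to 77.4 in wild-type and 43.4 to 82.4 in ΔAgo2 tumors.

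Pros1, the cofactor protein S of protein C, was at 32.5 to 64.4 CPM in wild-type and at 24.0 to 35.5 CPM in ΔAgo2 tumors. The groups overlapped through wild-type tumor 4, and the log2 fold change was -0.58 ± 0.25 (SE) with an adjusted p of 0.167 by edgeR. After the GC correction it was -1.03 with an adjusted p of 0.00364, and in that fit Pros1 was the 1 coagulation member called and F3 was not. Over the 15906 genes tested that had a GC value, the Spearman correlation of log2 fold change with GC content was -0.561, which stands beside every difference given here.

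Of the fibrinolysis genes, the urokinase gene Plau, whose protease turns plasminogen into plasmin, was the most abundant. Plau measured 208, 221, 357 and 449 CPM across wild-type tumors 1 to 4 and 503, 363, 345 and 322 CPM across ΔAgo2 tumors 1 to 4. The groups overlapped, with 2 low and 2 high wild-type tumors, and the log2 fold change was 0.31 ± 0.28 (SE) with an adjusted p of 0.481. The urokinase receptor gene Plaur ran from 81.7 to 157.5 CPM in wild-type and from 105 to 203 CPM in ΔAgo2 tumors, with 0.32 ± 0.28 at an adjusted p of 0.465. Receptor and ligand kept a similar proportion, at a Plaur to Plau ratio in TPM of 0.207 to 0.439 and 0.262 to 0.365. The tissue plasminogen activator Plat (-0.34 ± 0.20, adjusted p of 0.294) and the protease inhibitor Serpine2 (-0.61 ± 0.30, adjusted p of 0.225) had lower means in ΔAgo2 tumors and did not pass the test.

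The scale bears on which groups overlapped. In CPM the ΔAgo2 tumors were separated from wild-type tumors in C1ra, F3 and Procr, and in TPM in F10, Procr, Plau and Plaur, in each case with ΔAgo2 higher. In TPM 6.36% of all genes tested were separated in this direction and 5.34% in the other. For a given gene, 1 CPM corresponded to a TPM of 0.701 (wild-type tumor 4) to 1.27 (ΔAgo2 tumor 2) times its mean over the libraries, and ΔAgo2 tumor 1 was at 0.763. Procr was thus the 1 member separated on both scales.

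**Figure D4:**
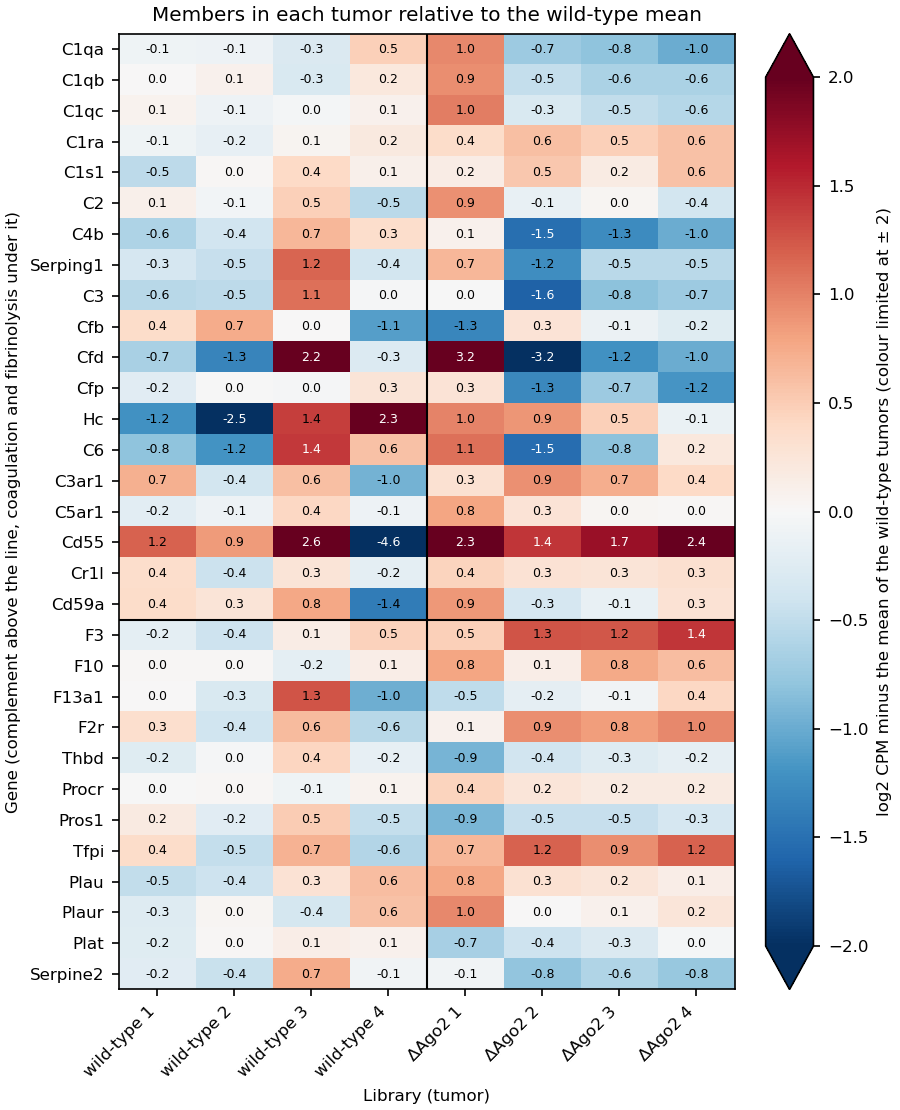
Each of the 31 members tested in each tumor, as log2 CPM minus the mean log2 CPM of the 4 wild-type tumors (red, higher; blue, lower; colour limited at 2 in either direction). ΔAgo2 tumor 1 is red for C1qa, C1qb, C1qc and Cfd, where ΔAgo2 tumors 2 to 4 are blue, and F3, F2r and Tfpi are red in ΔAgo2 tumors 2 to 4.

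Seen by tumor, ΔAgo2 tumor 1 was above the wild-type range in 15 of 31 members, 10 of them of complement, and below it in 4. ΔAgo2 tumors 2, 3 and 4 were below it in 12, 10 and 8 members, of which 9, 7 and 7 were of complement, and above it in 7 each. Over all genes tested, 24.4% to 33.1% were above the wild-type range and 23.5% to 28.6% below it in these tumors. The summed TPM of the complement members was 3146 ± 222 in wild-type and 3211 ± 1328 in ΔAgo2 tumors (SD, n = 4), with 5172 in ΔAgo2 tumor 1 and 2380 to 2884 in the other ΔAgo2 tumors, and the C1q chains made up 67.7% to 84.2% of it. For the coagulation and fibrinolysis members the sums were 763 ± 156.6 and 1164 ± 196 TPM, and the ranges of 653 to 995 and 903 to 1355 TPM overlapped.

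The rest of the pathway was read from a list of 77 other complement, coagulation and fibrinolysis genes, of which 42 passed the filter on low counts. Of 17 other complement genes tested, 1 fell and 16 did not pass the test, and of 25 other coagulation genes 1 rose, 1 fell and 23 did not. The 3 called are 7.14% of the 42, beside 3.49% of all genes tested (1.36% higher, 2.12% lower). The list was chosen with earlier results of these data known. F2rl1 encodes PAR2, the receptor that the complex of tissue factor and factor VII cleaves, and its gene (ENSMUSG00000021678.9) lies on chromosome 13 at 95511732 to 95525227, on the minus strand. F2rl1 measured 33.1, 31.4, 42.1 and 30.0 CPM across wild-type tumors 1 to 4 and 73.7, 98.0, 94.0 and 105.9 CPM across ΔAgo2 tumors 1 to 4. All ΔAgo2 tumors were far above all wild-type tumors, with means of 34.1 ± 5.44 and 92.9 ± 13.7 CPM, a log2 fold change of 1.44 ± 0.20 (SE) at an adjusted p of 0.00491 by edgeR. F2rl1 was called in 16 of 17 alternatives, with log2 fold changes from 1.28 to 1.63 and adjusted p of at most 0.0507.

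Masp1 encodes a protease of the lectin pathway of complement. Masp1 measured 128.8, 95.9, 95.5 and 77.0 CPM across wild-type tumors 1 to 4 and 22.8, 43.9, 44.5 and 43.0 CPM across ΔAgo2 tumors 1 to 4. The groups were well apart, with ΔAgo2 tumor 1 lowest, and Masp1 fell by 1.37 on the log2 scale (SE 0.26) with an adjusted p of 0.0222 by edgeR. Without any 1 of 4 libraries the adjusted p was 0.0541 to 0.0715 (wild-type tumor 2, ΔAgo2 tumor 2, 3 or 4), and in TPM ΔAgo2 tumor 2 (16.4) lay above wild-type tumor 4 (15.8). Vwf, the von Willebrand factor that tethers platelets, measured 14.6, 30.9, 25.1 and 31.1 CPM across wild-type tumors 1 to 4 and 11.02, 11.3, 12.7 and 12.4 CPM across ΔAgo2 tumors 1 to 4. The ΔAgo2 values lay close together under all wild-type values, of which that of tumor 1 was nearest, and Vwf fell by 1.09 (SE 0.26) with an adjusted p of 0.0466 by edgeR. This call was lost with the GC correction, at -0.67 with 0.103, at equal depth, at -1.07 with 0.0658, and without any 1 of 6 libraries (wild-type tumor 2, 3 or 4, ΔAgo2 tumor 2, 3 or 4), with adjusted p from 0.0506 to 0.148, and in TPM ΔAgo2 tumor 4 (2.63) lay above wild-type tumor 1 (2.59). The summed platelet and megakaryocyte markers were at 133 to 333 TPM in wild-type and 111 to 266 TPM in ΔAgo2 tumors. Pf4, at 105 to 289 TPM, made up most of the sum in every tumor. The 3 of 5 markers tested had log2 fold changes of -0.23 for Pf4, -1.25 for Itga2b and -1.20 for Ppbp. Their adjusted p were 0.734, 0.0763 and 0.193 by edgeR. The part of these cells in the Vwf values was not tested.

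**Figure D5:**
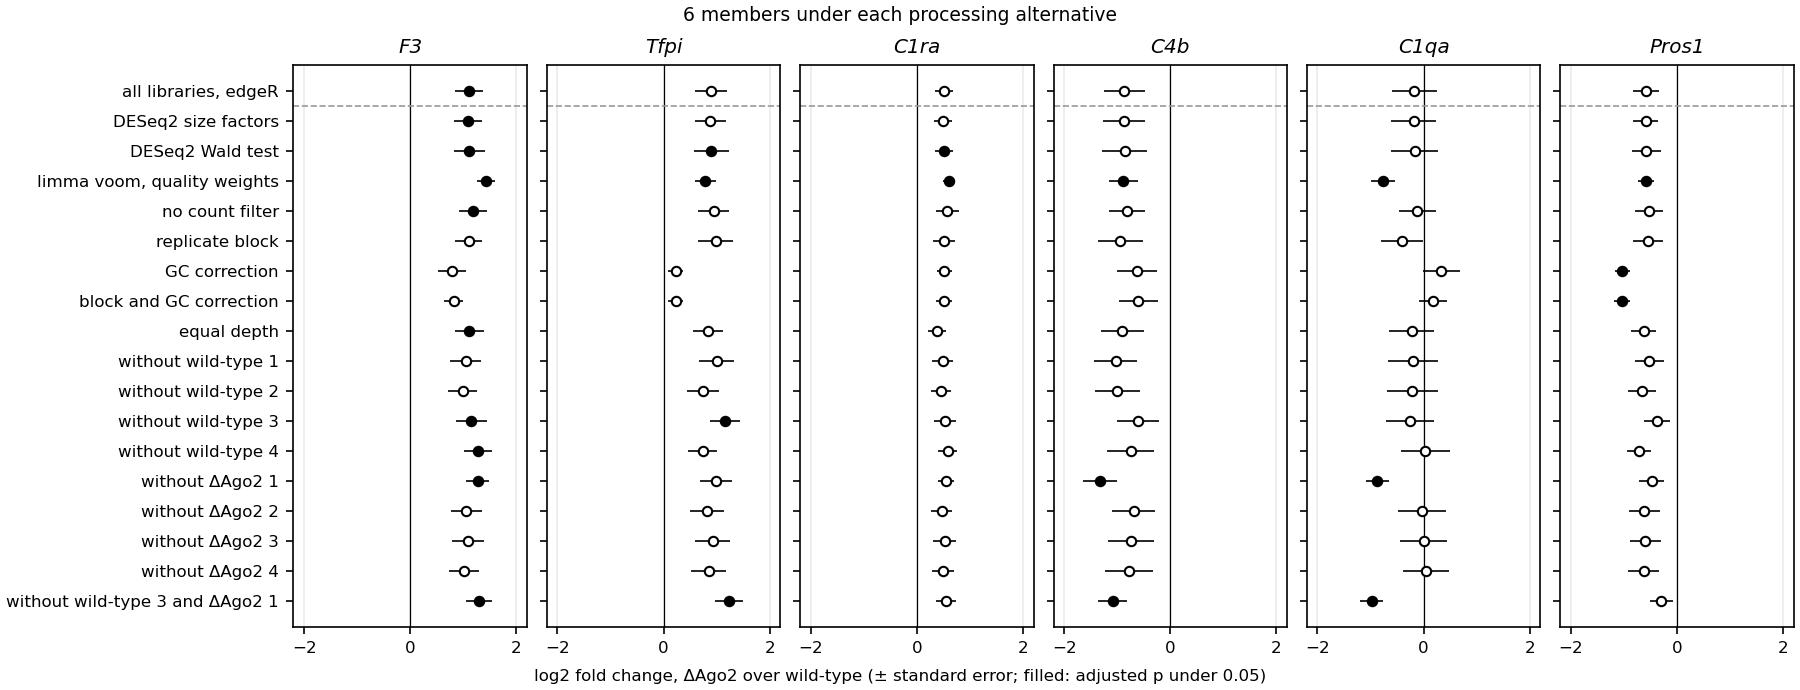
Log2 fold change (ΔAgo2 over wild-type, with standard error) of 6 members under each processing alternative, from the fit with all libraries in the top line to the fit without wild-type tumor 3 and ΔAgo2 tumor 1 in the bottom line. Filled points have an adjusted p under 0.05. F3 stays between 0.79 and 1.42 and is filled in 9 of 17 alternatives, and C1qa crosses 0.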

How the data were processed

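RNA from 8 tumors was sequenced as stranded, paired-end mRNA libraries. The deposited values were counts per gene, whole and not normalized by the authors, and TPM values, which the authors scaled by gene length to a common total per library. Per the labels and methods, reads were aligned to mm10 with STAR named among the tools. Annotation, strand setting and multi-mapping rule are not given in the sources used here, so the counts of paralogs and of overlapping genes are uncertain. Identifiers were matched to GENCODE M21 on GRCm38 (99.29% of 55487).

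Genotype was tested by quasi-likelihood in edgeR 4.0.16 (R 4.3.3) after filterByExpr and TMM scaling, without covariates. Adjusted p are Benjamini-Hochberg values over all 16061 genes that passed the filter, and the threshold was 0.05. CPM used TMM-scaled totals. A count minimum was thus applied before the test, and C7 has no result. SE is that of the log2 fold change, and SD is over 4 tumors. p-values measure the spread between tumors of separate mice, all with 1 batch label. Libraries of a group differed beyond sampling noise in each pair and were kept as replicates. TPM was used for levels and ratios and was not tested.

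All 32 members were named. Values in every library were given for members past the threshold, for members whose groups did not overlap and for the leading gene of each role, and other pathway genes were named if past the threshold. Values of C3, C4b, Cfd and other members were added after they had been seen. The members, the lists of 77 other pathway genes and the markers of 11 cell types were chosen with earlier results of these data known. Alternatives were DESeq2 1.42.0 (size factors and Wald test), limma 3.58.1 voom with sample quality weights, no count filter, the replicate number as a block, a GC correction (each library's trend, taken from genes averaging 50 counts or more, as an offset), both together, thinning to 7903288 counts, leaving out each library, and, added after the data were seen, leaving out wild-type tumor 3 and ΔAgo2 tumor 1. The procedure was tested on simulated counts. Promoters came from RefSeq, and annotation was read in Python 3.11.15. The study's cell culture and transposable element data were not analysed here. The values of 1 other pathway gene are not reported here.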

Additional observations from a re-analysis of the deposited data

Results flagged for a closer look

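Among 70 groups of 4 values (31 members, 3 other pathway genes and Ago2, in each genotype), 8 held a tumor whose gap to its nearest neighbor exceeded Dixon's critical share of the group's range, beside the 3.5 that chance gives at 1 group in 20. In ΔAgo2 tumor 1, C1qa was at 921 CPM (238 to 288 in the other ΔAgo2 tumors), C1qb at 706 (238 to 264), C1qc at 605 (200.4 to 242), Cfd at 250.4 (2.90 to 13.2) and Masp1 low at 22.8 (43.0 to 44.5). In wild-type tumor 3, Serping1 was at 71.0 CPM (22.9 to 25.1 in the other wild-type tumors), Cfd at 124.7 (10.5 to 21.8) and C5ar1 at 54.7 (35.4 to 38.4).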

How the results depend on the processing

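Calls rested on the fit. The 560 genes called became 2265 with DESeq2's Wald test (1129 higher, 1136 lower), 4476 with limma voom and quality weights, 983 without the count filter (515 higher, 468 lower), 304 with the GC correction and replicate block and 3981 without wild-type tumor 3 and ΔAgo2 tumor 1, and ran from 88 to 1793 with 1 library left out. With the Wald test, voom and both tumors left out, the complement members called went from 0 to 1, 5 and 4 (0 to 3 with 1 library left out), the coagulation members from 1 to 2, 6 and 3 (0 to 2), and the other pathway genes from 3 to 6, 9 and 7 (1 to 3). The 2 tumors left out together had been chosen because C1q and tissue markers stood apart in them, so the 4 complement calls (C1qa, C1qb, C4b, Cfp, all lower) are a description. Replicate numbers did not pair the tumors, since same-numbered tumors correlated at -0.24, 0.10, -0.04 and -0.29, and the replicate block called 70 genes, 0 complement, 0 coagulation and 0 other pathway genes (F3 1.10 with adjusted p of 0.116, F2rl1 1.44 with 0.0507, Masp1 -1.38 with 0.117 and Vwf -1.04 with 0.159). With the block and the GC correction together, F3 was 0.82 with 0.0740 and Vwf -0.65 with 0.120.

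Cfb, C6, Cd59a and Cfd had a result in 16 of the 17 alternatives and Hc in 15. The log2 fold change kept its sign in 19 of 31 members under every alternative that tested them. It turned in C1qa (0.33 with the GC correction, 0.18 with the block added), C1qb (0.014 without the filter, 0.35, 0.24), Cr1l (-0.50, -0.54), C1qc (-0.49 with voom, -0.094 with the block, -0.49 without both tumors), C2 (-0.46 with voom, -0.080 without both tumors), Cfd (-1.31 with voom, -0.93 with the block, -0.18 with block and GC correction, -0.85 without both tumors), Hc (0.47 with voom, 0.25 with the block), C6 (0.079 with voom), Cd59a (0.011 without the filter, 0.032 with the block), F13a1 (0.41) and Plaur (-0.070, both without the 2 tumors). With 1 library left out the values ran from -0.87 to 0.048 in C1qa, -0.60 to 0.14 in C1qb, -0.46 to 0.26 in C1qc, -0.23 to 0.30 in C2, -0.92 to 0.15 in Serping1, -2.25 to 2.10 in Cfd, -0.62 to 0.66 in Hc, -0.91 to 0.49 in C6, -0.33 to 0.20 in Cd59a and -0.53 to 0.31 in F13a1. The cause of these changes was not tested. The median of all genes tested was 0.16 without the filter and -0.15 with the Wald test, beside 0.04, and over the genes tested in every setting 0.12 and 0.06, beside 0.06. Depth limited Hc, C7, Cd55, C2 and Cd59a, and in wild-type tumor 4 a count of 0 allows 0.38 CPM.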

Other observations

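Of the 42 other pathway genes tested, 6 were higher in CPM in every ΔAgo2 tumor than in any wild-type tumor and 3 were lower, beside 8.05% and 8.36% of all genes. The genes named here did not pass the adjusted threshold and were chosen after their values had been seen. S100a10, which with annexin A2 holds plasminogen on the cell surface, was at 132 to 272 CPM in wild-type and 299.6 to 595 CPM in ΔAgo2 tumors, with a log2 fold change of 0.89 ± 0.29 (SE) at an adjusted p of 0.0989 by edgeR. The integrin gene Itgb2, a chain of complement receptors, was at 129.6 to 155 and 166 to 229 CPM, with 0.37 ± 0.18 and an adjusted p of 0.209. C1rl and Serpind1 were separated at lower levels, with adjusted p of 0.203 and 0.260, and Proc, encoding protein C, was lower, at 0.43 to 1.00 and 0.06 to 0.38 CPM with an adjusted p of 0.0845. In TPM the groups overlapped for Itgb2 (95.6 to 144 and 119 to 275), C1rl (2.59 to 8.82 and 6.82 to 14.7) and Proc (0.35 to 1.15 and 0.05 to 0.56). Those of S100a10 and Serpind1 did not, a separation that 6.36% of all genes tested showed in that direction. The summed TPM of the marker lists not set beside a member was 46.7 to 212.5 in wild-type and 118 to 290.3 in ΔAgo2 tumors for 5 neutrophil markers, 164 to 293 and 46.4 to 237 for 4 mast cell markers, and 197 to 538 and 182 to 426 for 5 red blood cell markers, and none of these markers passed the threshold. The neutrophil markers differed in direction, with log2 fold changes of 1.01 for S100a8, 0.92 for S100a9, -0.38 for Csf3r, -0.27 for Cxcr2 and -1.11 for Retnlg.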
